A study of Mus musculus with 16 samples.

Results

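The genes of the cytoplasmic ribosomal proteins were followed in resting and in regenerated mouse liver, with and without HIRA in hepatocytes. Their names (Rpl or Rps with a number, plus Rplp0, Rplp1, Rplp2 and Rpsa, without pseudogenes marked -ps and without the Rps6k kinases) fitted 89 of the 55421 rows of the count table. Of these, 86 held at least 10 counts over the 16 libraries and were kept, 51 of the large (60S) and 35 of the small (40S) subunit. The 3 rows below this minimum were Rps12l1 and Rpl10l with 0 counts and Rpl39l with 9, so these copies were not analysed further.

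Poly-A RNA had been sequenced from livers of male C57BL/6 mice in 4 groups of 4 libraries. Mice received AAV8 with the hepatocyte promoter Tbg at 6 months of age. In the HIRA KO groups the virus carried Cre in HIRA fl/fl mice or saCas9 with sgRNA-HIRA in wildtype mice, and in the control groups Cre in wildtype mice or saCas9 with sgRNA-Rosa26, a guide to a safe-harbour site. All groups therefore carried virus and a nuclease or recombinase, and each held 2 libraries of each approach. The left lateral and median lobes were resected 4 weeks later (before regeneration), and the remaining liver was taken 5 days after resection (after regeneration), so time, lobe and mode of collection cannot be told apart. HIRA helps to load histone H3.3 onto DNA when it is not being copied. The promoter restricted the deletion to hepatocytes, while all cells of the liver entered the RNA. The columns of the tables do not show the approach or the mouse, so libraries from the same mouse were treated as independent, and the numbers 1 to 4 used here only name them.

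Cytoplasmic ribosomal proteins build the small subunit, which reads the mRNA, and the large subunit, which joins amino acids. Cells need them in nearly equal amounts, and their mRNAs start with a C followed by a tract of pyrimidines (a 5' terminal oligopyrimidine or TOP motif), through which mTORC1 and the binding protein LARP1 set their translation and stability. In liver, resection is known to start growth and division of hepatocytes, which need new ribosomes.

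Total counts ran from 15103059 to 21738619 per library. Hira counts, which check the labels, were 5.21 to 6.18 CPM (counts scaled to library size, with TMM factors) in control and 3.13 to 4.38 in HIRA KO before regeneration, and 4.99 to 6.29 against 3.04 to 4.56 after it. The ranges of the genotypes did not overlap at either time, although the log2 fold changes of -0.70 ± 0.17 (SE, n = 4 per group) before and -0.69 ± 0.17 after did not pass the edgeR threshold (adjusted p = 0.129 and 0.0666). All 12 hepatocyte markers were measured and summed to between 115000 and 178400 CPM, and 3 of them were called lower after regeneration in each genotype. Libraries 1 and 2 of each HIRA KO group stood apart: on the second principal component of 13176 genes they lay at -47.4 and -36.6 before and at -40.2 and -36.2 after regeneration, against -1.14 to 31.2 in the controls. Counts of calls in comparisons with HIRA KO are also given without them.

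Because the TOP motif lies at the transcription start, 30 bases around start sites of RefSeq (15 before and 15 from the start, gene strand, GRCm38.p6) are shown, with the longest run of C or T in capitals. The first 6 belong to genes called higher after regeneration in HIRA KO, and the last 5 to genes not called. All of the first 6 have a run of at least 8 bases, and the 8 called genes with a shorter run are not shown.
Rplp2, chr7:141447636-141447665, plus strand: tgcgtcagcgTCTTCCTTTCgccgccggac
Rpl39, chrX:37085208-37085237, minus strand: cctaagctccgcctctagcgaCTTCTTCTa
Rpl31, chr1:39367836-39367865, plus strand: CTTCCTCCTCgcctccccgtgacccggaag
Rpl22l1, chr3:28805493-28805522, plus strand: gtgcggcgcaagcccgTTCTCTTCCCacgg
Rpl35, chr2:39005117-39005146, minus strand: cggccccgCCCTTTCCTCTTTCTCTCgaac
Rpl38, chr11:114668565-114668594, plus strand: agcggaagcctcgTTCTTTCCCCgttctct
Rplp0, chr5:115559452-115559481, plus strand: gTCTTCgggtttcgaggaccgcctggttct
Rpl4, chr9:64173372-64173401, plus strand: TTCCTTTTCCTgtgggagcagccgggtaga
Rpl7a, chr2:26910792-26910821, plus strand: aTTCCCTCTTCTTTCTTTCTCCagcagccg
Rps2, chr17:24720048-24720077, plus strand: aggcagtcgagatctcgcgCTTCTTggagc
Rps6, chr4:86857353-86857382, minus strand: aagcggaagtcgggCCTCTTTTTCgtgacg

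RefSeq start sites were given for 62 of the 86 genes (74 entries). A run of at least 8 C or T on the gene strand stood in the 30 bases of 29 of these entries (39.2%), against 12.0% of all 32851 entries. On the other strand the shares were 4.05% and 13.2%. A C at the annotated start with at least 4 further pyrimidines was found in 18.9% of the entries of ribosomal protein genes and in 2.51% of all entries. By the presence of this run, of 28 genes with it 9 were called higher after regeneration in HIRA KO (median log2 fold change 0.33), and of 34 genes with a shorter run 8 were called (0.31). In the sequences above, Rpl7a, Rpl4 and Rps6 carried long runs and were not called. The runs of Rpl4, Rpl31 and Rplp0 end before the annotated start, so a run in capitals can lie outside the annotated mRNA.

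In the annotation (GENCODE M21, GRCm38), 81 of the 86 genes were protein coding, with 3 to 10 exons and a median spliced length of 729 bases, against 2845 bases for 7675 other coding genes with a mean of at least 10 CPM. The other 5 (Rpl32l, Rpl6l, Rps3a2, Rps3a3 and Rps4l) are annotated as processed pseudogenes, which are copies of an mRNA put back into the genome. The 86 genes lay on 19 chromosomes, with 4 genes on X. Per kilobase of transcript, mean levels of the coding genes over the 16 libraries were highest for Rplp1 (478 CPM per kb, library range 275 to 649), Rpl41 (391, 295 to 522) and Rps2 (372, 291 to 578), whose ranges overlap. Next came Rpl10 (357) and Rpl4 (323), and Rpl3l was lowest (0.336). The gene encoding the laminin receptor protein of the small subunit, Rpsa, had 257, 340, 314 and 274 CPM in control, against 310, 259, 281 and 248 in HIRA KO before regeneration, with no call in any comparison. Within a group the median coefficient of variation over 81 genes with a mean of at least 10 CPM was 8.28% in control before, 12.2% in HIRA KO before, 11.8% in control after and 10.2% in HIRA KO after regeneration. For other coding genes at this level it was 10.3%, 11.4%, 11.2% and 14.8%, so that the ribosomal protein genes varied less in the first and last group only.

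Together the 86 genes took about 1% of the counts, most in HIRA KO after regeneration. Their share was 0.966%, 1.09%, 1.09% and 1.01% in the control libraries before regeneration (1.04% ± 0.0621, SD, n = 4). In HIRA KO before regeneration it was 1.09%, 0.850%, 0.921% and 0.849% (0.926% ± 0.112), so 3 of 4 libraries lay below every control and library 1 within the control range. After regeneration it was 0.917%, 0.980%, 1.02% and 1.31% in control (1.06% ± 0.173), whereas HIRA KO had 1.11%, 1.23%, 1.22% and 1.16% (1.18% ± 0.0569). In HIRA KO the share was thus higher in every library after regeneration than in any before it (1.106% against 1.0866% for the closest), while the control groups overlapped. With mitochondrial genes and Alb left out of the total, the HIRA KO groups overlapped too. Library 1 then had 1.340% after and 1.347% before regeneration. Library 4 of control after regeneration held the highest share of all, and without it the control mean after regeneration was 0.974%. Both subunits had about the same course, with 60S genes at 0.496% to 0.790% and 40S genes at 0.343% to 0.519%. In bulk tissue, fewer cells of a type and less RNA per cell cannot be told apart.

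**Figure D1:**
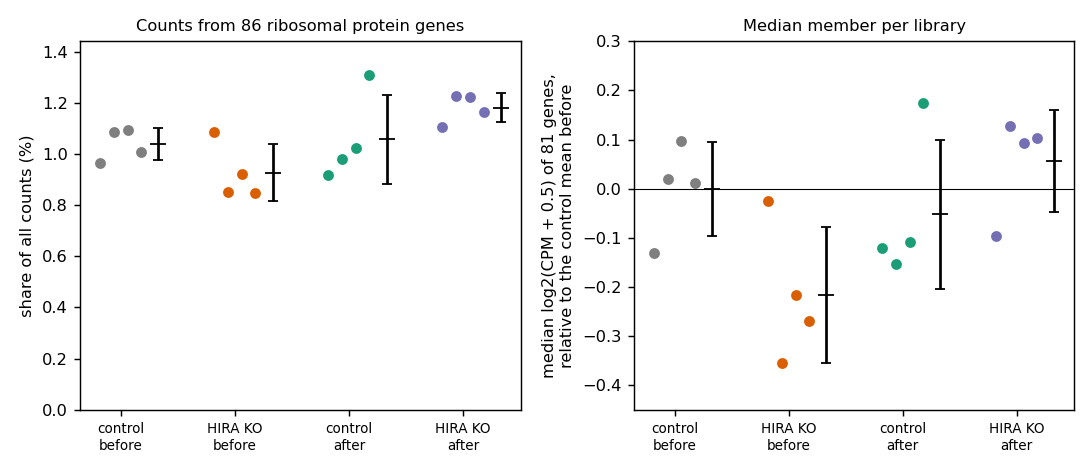
Left, share of all counts (%) taken by the 86 ribosomal protein genes in each library, and right, the median over 81 genes of log2(CPM + 0.5) relative to the control mean before regeneration. Points are libraries and bars are mean ± SD (n = 4). The HIRA KO libraries run from 0.849% to 1.09% before and from 1.11% to 1.23% after regeneration.

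The first question was whether loss of HIRA changed ribosomal protein mRNAs in resting liver. The values were lower in HIRA KO for most genes, but no gene passed the threshold. Of the 86 genes, 75 had a negative log2 fold change in HIRA KO against control before regeneration, with a median of -0.21, against 0.01 over all 23018 genes tested. edgeR called 0 of 86 (0.0391% of all genes were called), with 34 at an unadjusted p under 0.05, 32 of them lower (5.95% of all genes were lower at that level). Of other coding genes with at least 10 CPM and up to 1000 bases, 15.7% to 30.4% by length class were lower at that level. DESeq2 called 12 of 86 (2.37% of the 15792 genes to which it gave an adjusted p), 11 of them lower. For 24 of the 86 genes the highest HIRA KO library was below the lowest control (4.53% of all genes).

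Relative to the control mean, the median of 81 genes stood at -0.03 on the log2 scale in HIRA KO library 1 before regeneration and at -0.35, -0.22 and -0.27 in libraries 2, 3 and 4, while the control libraries ran from -0.13 to 0.10. In library 2, 74 of the 81 genes lay below the control mean, in library 3 it was 75 and in library 4 it was 78, but in library 1 only 44. Without the 4 libraries that stood apart the median log2 fold change was -0.25 (all genes, -0.03), and edgeR again called 0 of 86 genes (0.0233% of all genes). In the deposited FPKM table, analysed with limma on log2(FPKM + 1), the median was -0.03 (all genes, 0.01) and 0 were called (0.0217% of all genes). The lower level of the counts was thus hardly seen in the FPKM.

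None of the 3 genes for the large subunit's stalk, which binds elongation factors, was called by edgeR before regeneration. Rplp1, an acidic stalk protein, had 210, 247, 274 and 221 CPM in control, against 194, 137, 155 and 157 in HIRA KO before regeneration. Every HIRA KO library lay below every control, but the log2 fold change of -0.56 ± 0.14 was not called (edgeR adjusted p = 0.131). Its partner Rplp2 had 91.5, 92.8, 111 and 97.3 against 82.8, 52.9, 67.0 and 66.7 CPM (-0.54 ± 0.13, edgeR adjusted p = 0.139). Rplp0, which anchors both to the ribosome, had 304, 369, 397 and 334 against 365, 289, 328 and 312 CPM, with groups that overlapped (-0.12 ± 0.13, edgeR adjusted p = 0.740).

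Rpl39, a very small protein that lines the exit tunnel of the large subunit, had 40.6, 44.0, 52.3 and 42.6 CPM in control, against 27.9, 20.1, 26.9 and 28.8 in HIRA KO before regeneration (-0.79 ± 0.17, edgeR adjusted p = 0.101). Here too the groups did not overlap. Rps29, a zinc-binding protein of the small subunit, had 96.3, 106, 117 and 105 against 84.6, 49.9, 69.8 and 77.5 CPM (-0.59 ± 0.13, edgeR adjusted p = 0.114). Neither gene was called by edgeR, while DESeq2 called both, and Rplp1 and Rplp2.

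**Figure D2:**
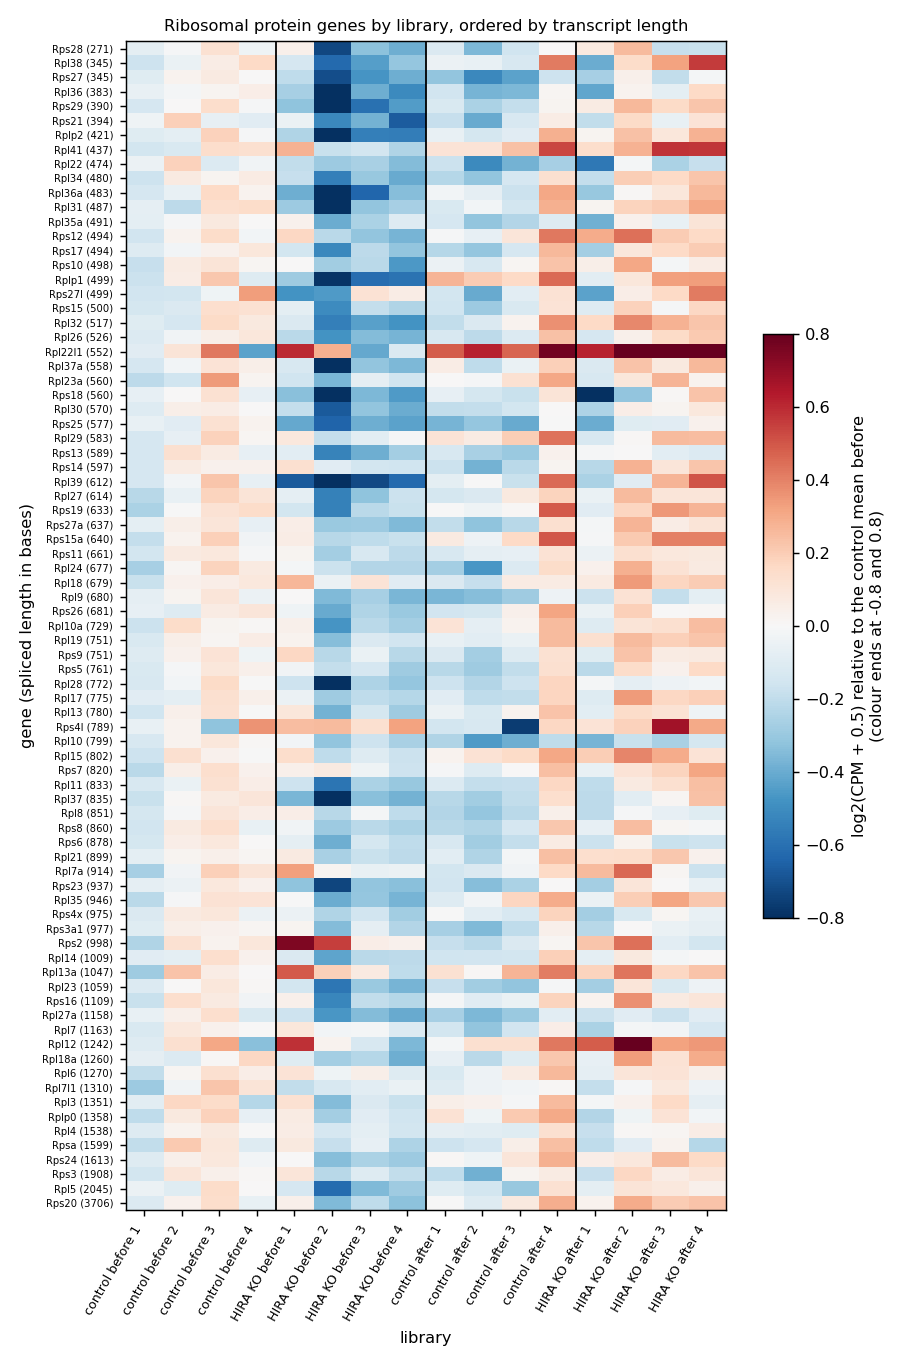
Log2(CPM + 0.5) of 81 ribosomal protein genes with a mean of at least 10 CPM (rows, ordered from short to long transcripts) in the 16 libraries (columns), relative to the control mean before regeneration. HIRA KO libraries 2, 3 and 4 before regeneration are blue for 74, 75 and 78 of the 81 genes, most deeply among the short transcripts at the top. The 3706 bases of Rps20 belong to the annotated principal transcript and may not be the form expressed here.

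How regeneration changed these mRNAs was asked in each genotype. In control liver they hardly moved: the median log2 fold change after against before was -0.05 (all genes, 0.0029), 32 of 86 were positive, and edgeR called 0 of 86 (10.2% of all genes). At an unadjusted p under 0.05 there were 7 (23.5% of all genes), and DESeq2 called 5 (19.2% of its 17104 genes with an adjusted p): Rpl22l1 higher and Rpl10, Rpl22, Rpl27a and Rps27 lower. Library 4 of control after regeneration lay above the others, with 73 of 81 genes above the control mean before regeneration, against 13, 8 and 26 in libraries 1 to 3. Without it the median was -0.16. The sign of this median turned with the scaling, to 0.02 with library size alone (all genes, 0.06) and to 0.05 in FPKM.

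In HIRA KO liver 24 of the 86 ribosomal protein genes rose after regeneration and 62 were not called. All 24 calls of edgeR were higher, while 6.48% of all genes tested were called higher and 12% were called in either direction. Of other coding genes with at least 10 CPM and up to 1000 bases, 19.3% to 20.1% by length class were called higher. The median log2 fold change of the 86 was 0.32 (all genes, 0.02), and 79 were positive. With an offset for transcript length, described further on, 11 were called (10.9% of all genes) and the median was 0.14 (all genes, 0.05). For 23 of the 86 the lowest library after regeneration exceeded the highest before it (8.61% of all genes). The 24 comprised 18 of 51 genes of the 60S and 6 of 35 of the 40S subunit, 22 of them coding. The called coding genes ran from 0.35 for Rps24 to 0.92 for Rpl39, and the 62 genes not called from -0.43 to 0.46.

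Rpl39 had 27.9, 20.1, 26.9 and 28.8 CPM in HIRA KO before and 37.3, 41.8, 54.0 and 63.6 after regeneration, a log2 fold change of 0.92 ± 0.17 (edgeR adjusted p = 0.00259). In control it had 42.2, 44.5, 39.4 and 61.3 CPM after regeneration (0.06 ± 0.17, edgeR adjusted p = 0.884). The HIRA KO values after regeneration thus lay near the range of the controls. Rps29 rose in HIRA KO to 111, 127, 118 and 124 CPM (0.77 ± 0.13, edgeR adjusted p = 0.00173), and in control it had 97.4, 88.7, 92.5 and 108 CPM after regeneration (-0.14 ± 0.13, edgeR adjusted p = 0.611).

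Of the stalk, Rplp1 rose in HIRA KO to 223, 253, 297 and 299 CPM (0.74 ± 0.14, edgeR adjusted p = 0.00257) and Rplp2 to 99.2, 115, 104 and 119 CPM (0.70 ± 0.13, edgeR adjusted p = 0.00300). Rplp0 had 296, 341, 377 and 344 CPM after regeneration, which overlapped its values before (0.07 ± 0.13, edgeR adjusted p = 0.773). So 2 of the 3 stalk genes were called, and Rplp0, the longest of them, was not. Rpl32, a protein of the large subunit, had 130, 96.6, 105 and 102 CPM before and 158, 185, 172 and 166 after regeneration in HIRA KO (0.65 ± 0.13, edgeR adjusted p = 0.00466), with no overlap. Rpl31, which lies near the exit tunnel, had 54.1, 37.8, 53.0 and 54.9 CPM before and 67.2, 75, 76.4 and 82.1 after (0.59 ± 0.13, edgeR adjusted p = 0.00897).

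Other genes of known roles were close to the threshold or were not called. Rpl5 and Rpl11, which carry the 5S rRNA and can bind MDM2, had log2 fold changes of 0.38 ± 0.12 (edgeR adjusted p = 0.0468) and 0.39 ± 0.12 (edgeR adjusted p = 0.0501) in HIRA KO, so that near-equal values fell on both sides of the threshold. Rps19, the small subunit protein mutated in Diamond-Blackfan anaemia, was called (0.45 ± 0.14, edgeR adjusted p = 0.0461), as was the tiny basic protein Rpl41 (0.46 ± 0.15, edgeR adjusted p = 0.0490). Rps27a, made as a fusion with ubiquitin, had 140, 110, 111 and 106 CPM before and 134, 163, 141 and 145 after (0.32 ± 0.12, edgeR adjusted p = 0.0949). Rps6, the substrate of S6 kinases, had 0.08 ± 0.11, Rps3 had 0.14 ± 0.12, and Rpl13a had 0.09 ± 0.14, none of them called in any comparison by edgeR. Among the most abundant genes, Rpl4 (0.05 ± 0.11) and Rps2 (-0.25 ± 0.17) were not called either.

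**Figure D3:**
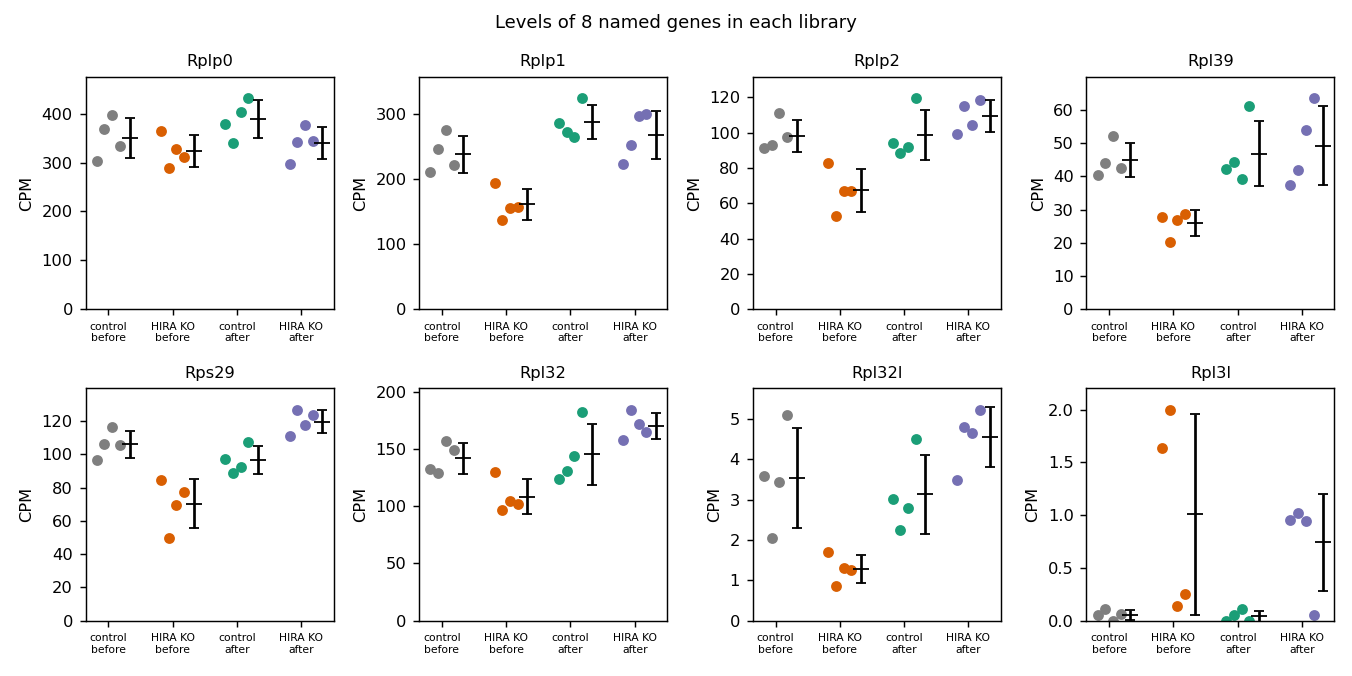
CPM of 8 genes in each library (points), with mean ± SD per group (n = 4). Rplp1, Rplp2, Rpl39, Rps29, Rpl32 and Rpl32l lie higher in all 4 HIRA KO libraries after regeneration than in all 4 before it, Rplp0 overlaps between groups, and Rpl3l is at most 0.109 CPM in the controls and reaches 2.00 CPM in HIRA KO.

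The count of 24 depended on the libraries and the fit. It was 8 without HIRA KO library 4 before regeneration (7.34% of all genes were called) and 9 without library 2 (8.81%). Without library 3 before regeneration it was 13 (7.46%), and without library 1 it was 37 (12.2%). Without library 3 after regeneration it was 10 (8.2%). DESeq2 called 39 (20.8% of its 17542 genes with an adjusted p), and a fit to the groups compared alone 7 (6.84% of its 20922 genes). Rplp1, Rplp2, Rpl31, Rpl32, Rpl39, Rps29 and Rpl32l were called higher under each of the 19 alternatives tried. Without the 4 libraries that stood apart 27 were called (10.3% of all genes), 21 of them among the 24, and Rpl5, Rps19 and Rps3a3 lost the call. In FPKM limma called 14 (11.1% of all genes), 12 of them among the 24, with a median of 0.21.

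The differences between the genotypes were tested next. In HIRA KO against control after regeneration 76 of 86 genes had a positive log2 fold change, with a median of 0.13 (all genes, 0.02). edgeR called 0 of 86 (0.491% of all genes), and DESeq2 called 1, Rpl3l (5.93% of its 15354 genes with an adjusted p). At an unadjusted p under 0.05, 8 were higher (7.75% of all genes). Of other coding genes with at least 10 CPM and up to 1000 bases, 21.1% to 45.7% by length class were higher at that level. In the same classes it was 4.55% to 13.6% of ribosomal protein genes. Medians from the shortest class to that over 1000 bases were 0.15, 0.11, 0.13 and 0.05 for ribosomal protein genes. For the others they were 0.26, 0.16, 0.12 and -0.09. Without library 4 of control after regeneration the median of the 86 genes was 0.26, and with the offset for transcript length described below it was -0.02 (all genes, 0.06). Without the 4 libraries that stood apart it was 0.18 (all genes, 0.0035), with 0 called by edgeR (0.0698% of all genes). Rplp1 had 286, 273, 265 and 324 CPM in control, against 223, 253, 297 and 299 in HIRA KO, and Rplp2 94.1, 88.7, 91.7 and 119 against 99.2, 115, 104 and 119, so the groups that did not overlap before regeneration did so after it.

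Whether regeneration acted differently in the genotypes is given by the interaction, and no gene passed it. edgeR called 0 of 86 (0% of all genes), with 35 higher at an unadjusted p under 0.05 (3.97% of all genes) and none lower, and a median of 0.33 (all genes, -0.02). Of other coding genes with at least 10 CPM and up to 1000 bases, 16.4% to 56.5% by length class were higher at that level. The smallest edgeR adjusted p of a ribosomal protein gene was 0.242. DESeq2 called 3, Rpl32l, Rps27 and Rps29 (0.413% of its 16224 genes with an adjusted p). Without the 4 libraries that stood apart the median was 0.43 (all genes, 0.03), with 0 called by edgeR (0% of all genes). The calls in HIRA KO and their absence in control are therefore not shown to differ by edgeR. The same HIRA KO libraries before regeneration entered the first comparison and the rise in HIRA KO, so these are not independent, and each comparison's own values are given.

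**Figure D4:**
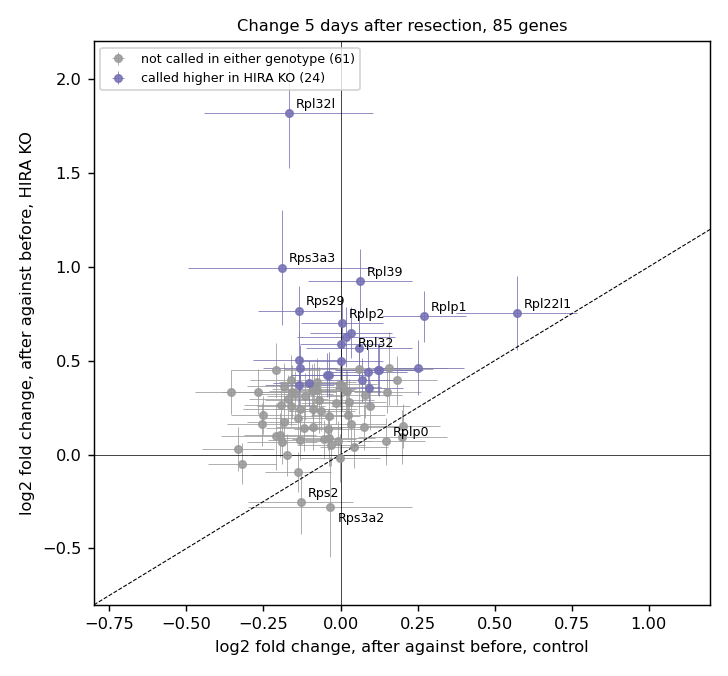
Log2 fold change after against before regeneration in control (x axis) and HIRA KO (y axis) for 85 genes, with bars of 1 SE. The 24 genes called higher in HIRA KO lie above the dashed line of equal change, and most genes lie near 0 on the x axis. Rpl3l, with a mean of 0.462 CPM and an SE of 0.73 in HIRA KO, is left out.

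Short transcripts changed most, and this held for genes of other functions too. Among ribosomal protein genes the median log2 fold change after regeneration in HIRA KO was 0.45 for 19 transcripts of up to 500 bases, 0.32 for 22 of over 500 and up to 750, 0.20 for 22 of over 750 and up to 1000 and 0.18 for 18 of over 1000 bases. For other coding genes with at least 10 CPM the medians were 0.22 (46 genes), 0.19 (204), 0.17 (280) and -0.10 (7145). By edgeR, 47.4%, 31.8%, 9.09% and 22.2% of the ribosomal protein genes in these classes were called higher. The shares of the others were 19.6%, 20.1%, 19.3% and 6.12%. In HIRA KO against control before regeneration the medians were -0.36, -0.24, -0.17 and -0.13 for ribosomal protein genes and -0.21, -0.13, -0.10 and -0.03 for the others. There 68.4%, 40.9%, 22.7% and 22.2% of ribosomal protein genes were lower at an unadjusted p under 0.05. Of the others 30.4%, 18.1%, 15.7% and 7.78% were. In the interaction the medians were 0.49 and 0.50 up to 500 bases, and 0.26 and -0.06 over 1000 bases. There 68.4%, 50%, 22.7% and 22.2% of ribosomal protein genes were higher at an unadjusted p under 0.05. Of the others 56.5%, 29.4%, 16.4% and 2.63% were. In control after against before the shortest ribosomal protein genes had a median of -0.11 and the shortest others one of -0.25.

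Spearman's rho between log2 fold change and spliced length over 81 ribosomal protein genes was 0.47 in HIRA KO against control before regeneration and -0.48 after against before in HIRA KO. Over the 7675 other genes it was 0.15 and -0.28. These describe genes that share the same libraries. By library, 46 other short genes had medians of -0.19, -0.45, -0.17 and -0.14 in resting HIRA KO liver, which became -0.19, 0.07, -0.02 and 0.19 with regeneration, while 19 short ribosomal protein genes had -0.19, -0.54, -0.32 and -0.37, and -0.19, 0.16, 0.09 and 0.20. Library 2 was the lowest before regeneration in both sets, but the highest was library 1 for ribosomal protein genes and library 4 for the others. After regeneration library 1 was the lowest and library 4 the highest in both. With a per-library offset for transcript length, estimated on the other genes and chosen after the data had been seen, edgeR called 11 of 86 in HIRA KO after regeneration, all higher (6.92% of all genes were called higher and 10.9% in either direction), with a median of 0.14 against 0.05 over all genes. The median in HIRA KO against control before regeneration was then -0.09 (all genes, 0.06), and in the interaction 0.07 (all genes, -0.01). The part of transcript length in the changes was not tested beyond this.

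**Figure D5:**
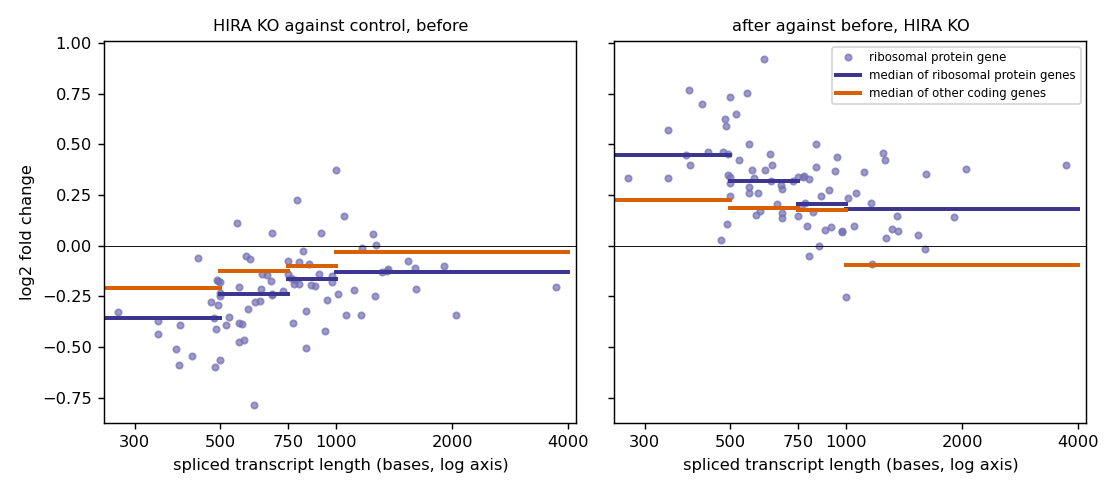
Log2 fold change against spliced transcript length (bases, log axis) for 81 ribosomal protein genes (points), in HIRA KO against control before regeneration (left) and after against before in HIRA KO (right). Lines are medians in 4 length classes of ribosomal protein genes and of other coding genes with at least 10 CPM. On the right the medians fall from 0.45 to 0.18 and from 0.22 to -0.10 with length.

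Copies of ribosomal protein genes were compared with their parents. Rpl22l1, a paralogue of Rpl22, was called higher after regeneration in HIRA KO, from 26.1, 20.9, 12.7 and 15.7 to 26.4, 33.3, 34.0 and 33.8 CPM (0.75 ± 0.20, edgeR adjusted p = 0.0202). It was also higher in control, from 16.0, 18.3, 23.0 and 12.5 to 24.1, 26.5, 23.8 and 29.5 CPM, without a call by edgeR (0.57 ± 0.20, edgeR adjusted p = 0.0774). Rpl22 had 73.0, 68.4, 70.0 and 65.8 CPM before and 56.1, 82.7, 70.1 and 73.6 after regeneration in HIRA KO. The log2 ratio of Rpl22l1 to Rpl22 rose in both genotypes by over 0.7, from -2.26 ± 0.386 to -1.34 ± 0.208 (SD, n = 4) in control and from -1.90 ± 0.415 to -1.13 ± 0.118 in HIRA KO, and in each the libraries after regeneration did not overlap those before. The exact two-sided permutation test gave p = 0.0286 in each, the smallest 4 against 4 libraries can give, and 0.143 after adjustment over 20 tests (5 pairs and 4 comparisons), so a single pair cannot pass here.

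Rpl3l, a paralogue of Rpl3 known from heart and skeletal muscle, had 1, 2, 0 and 1 counts in control, against 31, 30, 2 and 4 in HIRA KO before regeneration. After it there were 0, 1, 2 and 0 counts in control, against 21, 23, 20 and 1 in HIRA KO. High values were thus found in 5 HIRA KO libraries, namely the 4 that stood apart and library 3 after regeneration. The log2 fold changes of HIRA KO against control, 4.05 ± 1.02 before and 3.98 ± 1.07 after, depend on the prior count at so few counts and were not called by edgeR (adjusted p = 0.150 and 0.0921), while DESeq2 called both. Without the 4 libraries that stood apart they were 1.71 before and 3.47 after regeneration (edgeR adjusted p = 0.853 and 0.207), and without HIRA KO library 4 after regeneration the change after it was called (4.36, edgeR adjusted p = 0.0302). Rpl3 itself had between 149 and 225 CPM in all libraries. No ratio of Rpl3l to Rpl3 is given, since the pseudocount sets it in the controls.

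Rps4l, an intronless copy of the X-linked Rps4x, had 12.9, 13.1, 8.29 and 16.1 CPM in control, against 15.5, 16.4, 23.1 and 17.8 in HIRA KO after regeneration. The ratio to Rps4x differed by 0.63 (exact two-sided permutation test p = 0.0286, 0.143 adjusted). Rps27l, a p53 target and copy of Rps27, had log2 ratios to Rps27 of between 0.31 and 0.57 in the group means, and from 0.038 to 0.901 in the libraries of HIRA KO before regeneration. Rps27 itself had 94.1, 103, 106 and 101 CPM in control before and 80.9, 70.5, 74.8 and 89.9 after regeneration, with no overlap (-0.35 ± 0.12, edgeR adjusted p = 0.0640). For Rpl7l1, the copy of Rpl7, the ratio differed by at most 0.17 in a comparison. Of the remaining parents Rpl10 had 296, 329, 344 and 326 CPM in control before and 273, 236, 247 and 281 after regeneration (-0.32 ± 0.11, edgeR adjusted p = 0.0729).

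Of the 24 genes called in HIRA KO after regeneration, Rpl32l had the largest change. It is an intronless copy of Rpl32 on chromosome 10. The copy had 1.69, 0.867, 1.29 and 1.25 CPM in HIRA KO before and 3.49, 4.80, 4.65 and 5.23 after regeneration (1.82 ± 0.29, edgeR adjusted p = 0.000871), and 3.58, 2.04, 3.43 and 5.09 in control before. Rps3a3, a copy of Rps3a1, was also called (1.00 ± 0.30, edgeR adjusted p = 0.0412), from 0.847, 1.40, 1.63 and 0.939 to 1.68, 2.18, 2.47 and 3.28 CPM. Over the aligned bases Rpl32l was 97.5% identical to Rpl32 and Rps3a3 98.9% to Rps3a1, so reads of parent and copy could be exchanged in counting, and both values are uncertain. The 30 coding bases inside 1 exon of Rpl32 in which the copy differs most show 2 differences (in capitals, GRCm38).
Rpl32, chr6:115807137-115807166, minus strand: gaaactggcggaaacccagaggcatTgacA
Rpl32l, chr10:20208587-20208616, plus strand: gaaactggcggaaacccagaggcatCgacC
Another 309 rows named as Rpl or Rps pseudogenes with -ps, 211 of them with at least 10 counts, took together 0.0163% to 0.0239% of the counts of a library.

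Genes of the wider pathway were taken from lists, to be read against all genes, of which 6.48% were called higher and 5.53% lower after regeneration in HIRA KO, and 6.04% higher and 4.17% lower in control. Of 5 ribosome components outside the naming rule edgeR called Fau, a fusion with Rps30, lower in control after regeneration (-0.42 ± 0.12, adjusted p = 0.0282) and none in HIRA KO (1 higher and 1 lower at an unadjusted p under 0.05), where Fau had 0.21 ± 0.12 (edgeR adjusted p = 0.260). Of 18 translation factors with TOP mRNAs, 2 rose and 3 fell in HIRA KO after regeneration, and 0 rose and 1 fell in control. In HIRA KO the splicing factor Hnrnpa1 (0.48 ± 0.15, edgeR adjusted p = 0.0405) and Eif3k (0.35 ± 0.09, edgeR adjusted p = 0.0220) rose, and Eif4b (-0.59 ± 0.12, edgeR adjusted p = 0.00484), the elongation factor Eef2 (-0.57 ± 0.12, edgeR adjusted p = 0.00632) and Eef1a1 fell. The other 13 were not called in HIRA KO.

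Of 22 other initiation factors 1 rose and 3 fell in HIRA KO, and 2 rose and 2 fell in control. Eif6, which keeps the subunits apart, rose in both (0.62 ± 0.11 in HIRA KO, edgeR adjusted p = 0.00163, and 0.37 ± 0.11 in control, edgeR adjusted p = 0.0347), and Eif4a2 and Eif1 fell in both. Among 41 ribosome biogenesis genes 4 rose in HIRA KO (Gar1, Nop58, Nop56 and Fbl, components of the particles that modify rRNA) and 0 in control (6 higher and 3 lower at an unadjusted p under 0.05), where Nop58 had 0.57 ± 0.18 (edgeR adjusted p = 0.0546) against 0.63 ± 0.18 in HIRA KO (edgeR adjusted p = 0.0338). Of 14 genes of RNA polymerase I, which makes the large rRNAs, Taf1b rose (0.60 ± 0.19, edgeR adjusted p = 0.0468) and Polr1b fell (-0.32 ± 0.10, edgeR adjusted p = 0.0453) in HIRA KO, and edgeR called 0 in control (1 lower at an unadjusted p under 0.05). Of 19 genes of mTORC1 and Myc 0 rose in either genotype, and 4 fell in HIRA KO and 2 in control. Eif4ebp2 and Tsc1 fell in both (in HIRA KO -0.82 ± 0.12 and -0.70 ± 0.11, edgeR adjusted p = 0.000618 and 0.000733). Rptor and Tsc2 were called lower in HIRA KO only. The activity of mTORC1 was not tested. In HIRA KO against control and in the interaction edgeR called 0 genes of these 6 lists. At an unadjusted p under 0.05 the biogenesis list held 3 lower before regeneration, 3 higher and 5 lower after it, and 4 higher in the interaction.

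Markers of other cells moved with regeneration in both genotypes, and their part in the changes was not tested. All 10 Kupffer cell and macrophage markers were called higher after regeneration in control and in HIRA KO, with sums of 198 to 529 CPM in control and 270 to 309 in HIRA KO before, and 869 to 1100 and 860 to 1300 after it. The 10 mitotic markers were called in both too, with sums of 5.09 to 24.8 CPM before and 44.8 to 355 after. T and NK cell markers summed to 2.55 to 8.47 CPM over all groups, with 0 of 9 called by edgeR. Of 8 endothelial markers (160 to 287 CPM) 1 was called higher and 2 lower after regeneration in each genotype. Neutrophil markers summed to 3.19 to 13.1 CPM before and 12.2 to 27.6 after regeneration, with 1 of 6 called higher in each genotype. B cell markers ranged from 27.3 to 393 CPM in HIRA KO before and from 19.9 to 577 after regeneration, against 11.0 to 46.0 and 13.7 to 27.9 in control, where 1 of 6 was called higher after regeneration. Sums of the stellate cell and fibroblast list ran from 235 to 262 CPM in control and from 263 to 692 in HIRA KO before regeneration, from 184 to 427 and from 337 to 503 after it, and those of the cholangiocyte list from 70.4 to 101, 76.3 to 214, 96.2 to 138 and 98.9 to 156. Of the 9 stellate cell and fibroblast markers edgeR called 0 in any comparison. Of 8 cholangiocyte markers 1 was called higher after regeneration in control.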

How the data were processed

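RNA-seq of 16 liver libraries was analysed from 2 tables. Per the study, the authors trimmed reads with Trim Galore where needed, aligned them to mm10 with STAR and counted reads per gene with HOMER, and the processing notes name STAR, HTSeq and Cufflinks. The deposited counts were whole numbers. The deposited FPKM came from a tool not given in the sources used here, and its empty cells were read as 0. Columns of other samples numbered 0. Columns name genotype and time only. Total counts set the precision of each value. P-values measure the spread between libraries, which the columns tie to no mouse. Replicates differed by more than sampling noise in all pairs.

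The members and gene lists were chosen with earlier results of these data known. The 23018 genes with at least 10 counts were fitted with edgeR (version 4.0.16, R 4.3.3; TMM, robust quasi-likelihood, 4 group means) with Benjamini-Hochberg adjustment over all of them, called at an adjusted p under 0.05. SEs were derived from the log2 fold change and its F statistic. The fit was tested on simulated data. Alternatives were DESeq2 (version 1.42.0), other scaling and filters, fits to fewer libraries, limma (version 3.58.1) on log2(FPKM + 1) or log2(FPKM + 0.1), and a length offset. For the offset, the deviation of log2(CPM + 0.5) in a library from the gene's mean over all libraries was taken. A loess curve of this deviation on spliced length was fitted in each library, over other coding genes with a mean of at least 10 CPM. Spliced lengths are those of 1 transcript per gene (APPRIS principal, then basic, then longest coding part). Ratios of copies to parents used log2(CPM + 0.5), and aligned bases came from a local alignment (Biopython).

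Genes were named by a rule: in each comparison up to 5 called genes in each direction with the largest change, a set of always named genes (the stalk, the 5S group, Rps27a, Rpsa, Rps6, Rpl41, Rps3, Rpl13a, Rps19, copies and parents, and Hira), and up to 2 called genes in each direction of each pathway list. Rpl32, Rpl31, Rps24, Rpl4, Rpl7a, Rpl35, Rpl38, Rpl34, Rpl37, Rpl27a, Rps2, Rps10, Rpl13, Rpl24 and Rps20, and further pathway genes, were named after their values were seen. The values of 1 gene of the pathway lists are not reported here.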

Additional observations from a re-analysis of the deposited data

Results flagged for a closer look

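For 42 quantities (the share of counts and the CPM of 41 genes) each group of 4 was examined for 1 library far from the others by Dixon's criterion, the gap to the nearest library over the range of the group. This flagged 10 of 168 groups (5.95%), close to the 1 in 20 that chance gives, so no pattern is read from them. Before regeneration in HIRA KO, library 1 was high for Rpl41 (185 CPM, the others 129 to 138) and Rps27a (140 CPM, the others 106 to 111), and library 2 was low for Rpl31 (37.8 CPM, the others 53.0 to 54.9) and Rpl37 (40.3 CPM, the others 63.5 to 65.7). After regeneration in control, library 4 was high for Rpl38 (68.1 CPM, the others 46.6 to 49.2) and Rps19 (116 CPM, the others 80.4 to 82.7). After regeneration in HIRA KO, library 1 was low for Rpl22l1 (26.4 CPM, the others 33.3 to 34.0) and Rpl34 (56.1 CPM, the others 71.6 to 74.7), library 2 was high for Rps6 (104 CPM, the others 90.2 to 91.0), and library 4 was low for Rpl3l (0.0557 CPM, the others 0.948 to 1.02).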

How the results depend on the processing

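No paired analysis was possible because the columns carry none of the replicate numbers of the labels. All 24 genes called in HIRA KO after against before kept their direction under the 19 alternatives. Percentages here give the share of all genes called, for DESeq2 among those with an adjusted p. The count of genes called in HIRA KO was 39 with DESeq2 (20.8%), 41 with library size alone (11.8%) and 37 with filterByExpr (20.5%). With the groups compared alone it was 7 (6.84%), with limma on log2(FPKM + 1) 14 (11.1%) and with the length offset 11 (10.9%). When 1 library was left out it ran from 8 (7.34%) to 37 (12.2%). In HIRA KO against control before regeneration the count of 0 became 12 with DESeq2 (2.37%) and 1 with no filter (0.105%). With 1 library left out it was 0 to 1. After regeneration it became 1 with DESeq2 (5.93%), and was 0 to 1 with 1 library left out. In the interaction it became 3 with DESeq2 (0.413%), and stayed 0 with 1 library left out. In control after against before it became 5 with DESeq2, 2 with filterByExpr, 3 with the groups compared alone, 4 without the libraries that stood apart and 3 with the length offset (0 to 1).

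The median log2 fold change before regeneration moved to -0.0261 with limma on log2(FPKM + 1) and -0.0264 on log2(FPKM + 0.1) (-0.29 to -0.16 with 1 library left out), after regeneration to -0.0187 with the length offset (0.10 to 0.26), in HIRA KO after against before to 0.14 with the length offset (0.26 to 0.37), in the interaction to 0.17 on both FPKM scales and 0.0744 with the length offset (0.30 to 0.47), and in control after against before to 0.02 with library size alone, 0.05 with limma on log2(FPKM + 1) and 0.04 with the length offset (-0.16 to -0.02). The share of counts without mitochondrial genes and Alb was 1.22% and 1.13% before regeneration in control and HIRA KO and 1.25% and 1.41% after it (with 1 library left out 1.02% to 1.06%, 0.873% to 0.952%, 0.974% to 1.104% and 1.16% to 1.205% of all counts). As a share of summed FPKM it was 1.89%, 1.57%, 2.30% and 1.95%, where Ighj2 alone reached 1291300 FPKM in HIRA KO library 1 before regeneration, and without Ighj2 it was 1.90%, 1.97%, 2.30% and 2.30%, so that HIRA KO no longer lay below control. The FPKM share without Ighj2 thus had a higher mean after regeneration in control as well as in HIRA KO. Its libraries before and after overlapped in each genotype (in HIRA KO 2.19% in library 1 before and 2.11% in library 2 after). No ratio of a copy to its parent passed the threshold under either other scale. Library size alone moved the median of all genes in HIRA KO after against before from 0.02 to 0.14. The causes of these differences were not tested. Depth limits Rpl3l, Rpl32l, Rpl6l, Rps3a2 and Rps3a3, which rest on few counts.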

Other observations

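The 2 tables ranked some ribosomal protein genes differently per length. Rps10 stood at rank 76 of 81 by CPM per kb (54.8) but at rank 31 by FPKM (209), and Rpl24 at rank 79 (32.4 CPM per kb) but at rank 28 (212 FPKM). Rpl13a stood at rank 72 (78.0 CPM per kb) but at rank 2 by FPKM (521). Rpl13 stood at rank 27 (193 CPM per kb) but had a mean FPKM of 0. The FPKM results thus hold no level for Rpl13, although it counts among their 86 genes. Rplp1 ranked first in both. Rps2 had 577 and 504 CPM in libraries 1 and 2 before regeneration (356 and 351 in libraries 3 and 4, 291 to 374 in control) and 400 and 466 in libraries 1 and 2 after it (324 and 310, and 296 to 348 in control). These are the libraries that stood apart, and the genes were chosen after their values were seen.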
